A study of Mus musculus with 15 samples.

Results

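Liver transcripts were present in the RNA of 3 of 15 mouse kidneys, 2 of them wild type and 1 lacking Grhl1, and these 3 kidneys are set here against the other 12. The kidneys were chosen by measured values, namely those whose mean over 9 liver genes (Alb, Ahsg, Serpinc1, Cps1, Itih4, Mat1a, Plg, Vtn and Ambp) exceeded the median of all 15 by more than 1 log2 unit. Total RNA of the kidney of 7 Grhl1+/+ and 8 Grhl1-/- mice, all about 6 months old, had been measured on a 1-colour array with 1 array per kidney, and each array is taken as 1 animal because the series counts mice. Grhl1 is a transcription factor of the grainyhead family that acts in epithelia. The labels do not name the deleted part of the gene, the cells in which it was deleted or the strain. The 3 kidneys are wild-type replicates 7 and 3 and knockout replicate 10, and the other 12 comprised 5 wild-type and 7 knockout kidneys, with no treatment named in any group.

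Hepatocytes, the main cells of the liver, secrete most plasma proteins, make urea and bile acids and carry the cytochrome P450 enzymes that modify drugs and steroids. The proximal tubule of the kidney shares part of this programme, among others gluconeogenesis, tyrosine breakdown and the transcription factor Hnf4a. In rodents many hepatocyte genes, above all those of P450 enzymes, sulfotransferases and major urinary proteins, differ between males and females under the control of growth hormone, and some of the same genes differ between the sexes in kidney.

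The authors summarised each probe set with RMA on the log2 scale, so that a difference is a log2 ratio of array signals. RMA compresses dim probe sets, which makes their differences too small. In bulk RNA of this kind, fewer cells of a type and less RNA per cell cannot be told apart. Because liver transcripts chose the 3 kidneys, every difference between them and the other 12 is given as a description with its standard error (SE), and no single-gene p-value of that comparison is printed. Counts of genes that passed an adjusted p under 0.05 there summarise the fit in the same descriptive sense and support nothing. The difference was fitted over all 15 kidneys with genotype as a covariate. Values for the 3 kidneys are listed in the order wild-type kidney 7, wild-type kidney 3, knockout kidney 10 unless the kidneys are named.

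The mean of the 9 genes was 11.03, 8.52 and 8.36 in the 3 kidneys and lay between 5.68 and 5.98 in the other 12 (median 5.83, SD 0.08, n = 12). These are the values by which the kidneys were chosen. Wild-type kidney 7 stood 5.18 above the median of all 15, wild-type kidney 3 stood 2.67 above it and knockout kidney 10 stood 2.52 above it. The highest of the other kidneys, wild-type replicate 6, was 0.13 above the median, so that a gap of 2.38 separated the lowest of the 3 from the highest of the 12.

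Before the expression values, the promoters of 5 genes are shown, 4 of them among the liver genes high in the 3 kidneys and the other, Fbp1, a gene of both organs whose level did not differ between them. Each is the 250 bases before the RefSeq transcription start in the assembly GRCm38.p6, read 5′ to 3′ on the strand of the gene: Alb at chr5:90460620-90460869 on the plus strand, Ahsg at chr16:22891765-22892014 on the plus strand, Vtn at chr11:78498870-78499119 on the plus strand, Hamp at chr7:30944030-30944279 on the minus strand and Fbp1 at chr13:62888283-62888532 on the minus strand. Capitals mark matches, on either strand, to short motifs of 3 liver transcription factors: GTTAATNAT for HNF1, TTGCNNAA for C/EBP and CAAAGTC for HNF4.
Alb: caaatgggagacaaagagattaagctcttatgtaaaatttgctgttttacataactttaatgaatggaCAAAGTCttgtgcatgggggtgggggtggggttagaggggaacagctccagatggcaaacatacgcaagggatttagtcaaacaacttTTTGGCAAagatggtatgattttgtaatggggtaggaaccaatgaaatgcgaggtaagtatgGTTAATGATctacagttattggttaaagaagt
Ahsg: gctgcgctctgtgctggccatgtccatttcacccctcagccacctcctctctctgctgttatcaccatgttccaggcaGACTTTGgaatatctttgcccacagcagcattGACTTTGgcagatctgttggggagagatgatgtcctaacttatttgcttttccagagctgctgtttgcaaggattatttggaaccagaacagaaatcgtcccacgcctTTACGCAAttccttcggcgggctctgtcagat
Vtn: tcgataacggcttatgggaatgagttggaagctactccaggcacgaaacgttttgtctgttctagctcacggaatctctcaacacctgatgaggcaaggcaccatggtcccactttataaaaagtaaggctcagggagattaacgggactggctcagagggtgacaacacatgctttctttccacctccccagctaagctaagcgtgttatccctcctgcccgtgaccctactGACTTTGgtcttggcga
Hamp: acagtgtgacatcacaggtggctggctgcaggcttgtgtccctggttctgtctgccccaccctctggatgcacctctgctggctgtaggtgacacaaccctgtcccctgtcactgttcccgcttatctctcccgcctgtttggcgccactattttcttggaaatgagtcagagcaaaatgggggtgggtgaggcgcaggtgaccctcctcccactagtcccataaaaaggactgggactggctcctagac
Fbp1: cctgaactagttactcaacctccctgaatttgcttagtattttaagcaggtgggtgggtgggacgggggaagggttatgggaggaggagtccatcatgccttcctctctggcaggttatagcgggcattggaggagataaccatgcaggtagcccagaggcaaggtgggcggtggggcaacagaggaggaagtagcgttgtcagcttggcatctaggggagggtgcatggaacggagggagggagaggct
The Alb window held 1 match to each motif, the Ahsg window held 1 to the C/EBP and 2 to the HNF4 motif, the Vtn window held 1 to the HNF4 motif, and the Hamp and Fbp1 windows held none of these letters. Of 27025 windows of the same length, 0.78% held the HNF1 motif, 9.55% the C/EBP motif and 3.8% the HNF4 motif. Of the 149 hepatocyte genes described below that had a window, 8.72%, 22.82% and 8.72% held them, in the same order. The motifs do not overlap in these 5 windows, and a match describes the letters, not binding.

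Hepatocyte markers are given first, and of the 4 shown Hamp alone had no part in choosing the kidneys. Albumin (Alb), the main carrier protein of plasma, read 13.35, 12.20 and 12.17 in the 3 kidneys and between 8.42 and 9.98 (median 8.97) in the other 12. No kidney of the 12 came near the 3, although albumin was itself well above most probe sets there, with 85.84% of genes below its mean. Ahsg, the plasma glycoprotein fetuin-A, read 12.30, 9.79 and 9.85 against 5.20 to 5.67 (median 5.36), a difference of 5.18 (SE 0.34) or 36.2-fold in the fit. Hamp, which encodes the iron hormone hepcidin and was not among the 9 genes, read 11.74, 7.35 and 7.02 against 2.51 to 4.83 (median 3.11), and its difference of 5.50 (SE 0.72) was the largest among the 10 lists of hepatocyte roles used below. Cps1, the first enzyme of the urea cycle, read 10.53, 8.45 and 8.20 against 4.90 to 5.76 (median 5.30), with a difference of 3.64 (SE 0.30). The 3 kidneys lay above all 12 others for each of these 4 genes.

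The other 6 genes of the rule were also highest in wild-type kidney 7. Serpinc1, which encodes antithrombin, read 9.83, 6.97 and 7.11 against 4.72 to 6.46 (median 5.44). It was the rule gene with the narrowest gap, 0.51 between wild-type kidney 3 and the highest of the 12. Plg, the precursor of plasmin, read 10.37, 7.38 and 7.36 against 4.94 to 5.89 (median 5.46). Itih4, an inter-alpha-trypsin inhibitor chain of plasma, read 10.64, 7.69 and 7.30 against 5.20 to 5.94 (median 5.48). Mat1a, which makes S-adenosylmethionine in liver, read 10.52, 7.69 and 7.35 against 4.86 to 5.33 (median 5.11). Wild-type kidney 7 was the highest of the 3 for all 9 genes, and the other two lay within 0.39 of each other. Vtn, the adhesive plasma protein vitronectin, read 11.19, 8.60 and 8.31 against 5.62 to 6.15 (median 6.00). Ambp, the precursor of alpha-1-microglobulin and bikunin, read 10.49, 7.91 and 7.61 against 4.80 to 5.30 (median 5.19).

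**Figure D1:**
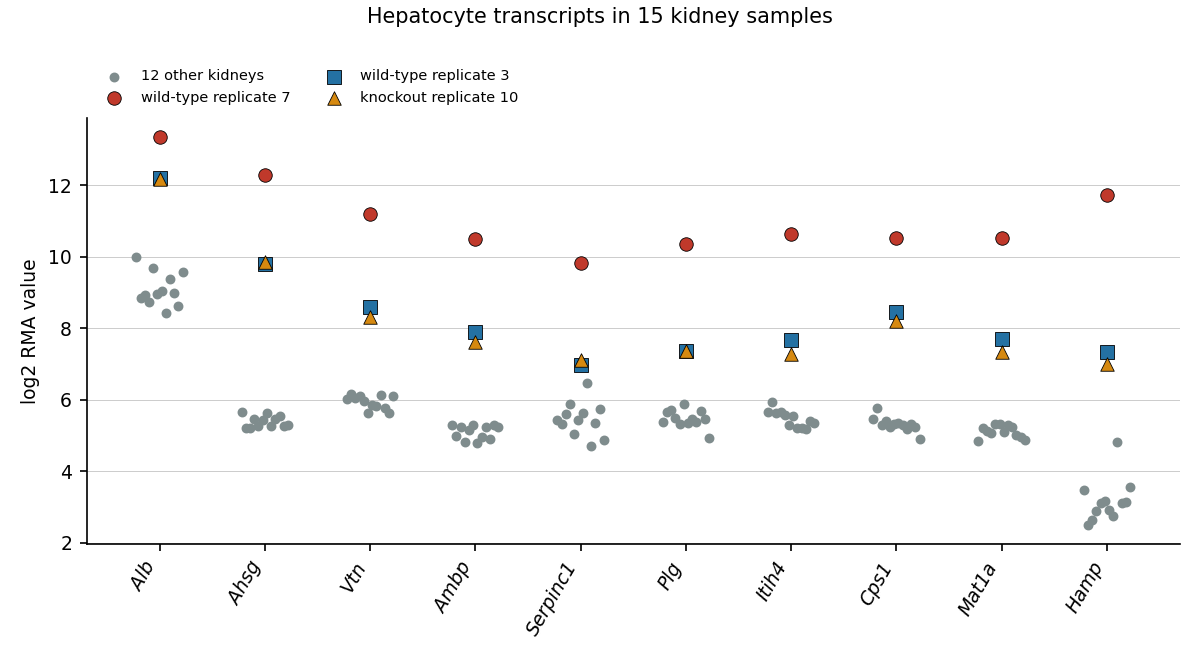
Log2 RMA values (vertical axis) of the 9 genes of the rule and of Hamp in each of 15 kidneys. Grey points are the 12 other kidneys, and the red circle, blue square and orange triangle are wild-type kidney 7, wild-type kidney 3 and knockout kidney 10; all 3 lie above every grey point for each gene, and wild-type kidney 7 is the highest throughout.

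Kidney genes were present in the 3 kidneys at levels close to those of the others. Slc34a1, the phosphate transporter of the proximal tubule, read 13.38, 13.45 and 13.50 against 13.39 to 13.55. Umod, the uromodulin of the thick ascending limb, read 13.25, 13.21 and 13.16 against 13.07 to 13.33. The water channel Aqp2 of principal cells read 9.65, 9.76 and 9.72 against 9.70 to 10.40, and Nphs1, the nephrin of podocytes, read 8.15, 7.70 and 7.70 against 7.62 to 8.52. Median fitted differences were -0.02 over 11 proximal tubule genes, -0.01 over 7 genes of the thick ascending limb, -0.05 over 5 of the distal tubule, -0.07 over 7 of principal cells, 0.04 over 5 of intercalated cells and -0.04 over 4 of podocytes. In none of these 6 lists did all 3 kidneys lie above or below all 12 others for any gene.

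Of 23521 probe sets with 1 gene symbol, 66 (0.281%) passed an adjusted p under 0.05 in limma as higher in the 3 kidneys and 0 passed as lower. An unadjusted p under 0.05, in either direction, was found for 1018. Of the 66, 9 were the rule genes, 43 were other genes of hepatocyte roles and 10 belonged to no list. The count was 101 without wild-type kidney 3 (99 higher and 2 lower), and only 8 of 11760 probe sets passed where the dimmer part of the array was left out. In 125 of 22180 genes (0.564%) all 3 kidneys lay above all 12 others and in 66 (0.298%) below them, and 74 of the 125, the 9 rule genes included, belonged to hepatocyte roles.

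The 179 measured genes of 10 hepatocyte roles, the rule genes among them, had a median difference of 0.72, against -0.02 for all genes. Without the 9 rule genes the median was 0.60 over 170 genes, of which 146 were higher, 43 passed and 65 had all 3 kidneys above the other 12. By kidney, 130 of the 179 exceeded the highest of the 12 in wild-type kidney 7, 86 in wild-type kidney 3 and 90 in knockout kidney 10, where 7.12%, 6.86% and 5.66% of all genes did. That median was 0.34 without wild-type kidney 7, 0.71 without wild-type kidney 3 and 0.78 without knockout kidney 10. Counts over the 179 genes include the rule genes, whose high values follow from the choice. The genes of each role are described in turn.

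Among the genes of plasma carriers and lipoproteins, 6 of the 17 that were not rule genes passed as higher, all 17 had a positive difference and the median was 1.78. Apoa1, the main protein of high-density lipoprotein, read 11.38, 8.98 and 9.01 against 5.99 to 6.80, a difference of 3.38 (SE 0.33). Apob, the protein of low-density lipoprotein, was already bright in kidney and read 11.20, 10.86 and 10.67 against 10.45 to 10.79. Its difference was 0.33 (SE 0.09), and knockout kidney 10 lay within the range of the others.

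Coagulation genes outside the rule passed in 5 of 17 cases with a median of 0.84. The fibrinogen gene Fgb read 11.11, 8.23 and 8.27 against 5.59 to 6.97, and Serpind1, which encodes heparin cofactor II, read 9.59, 6.27 and 6.25 against 4.21 to 5.23. By contrast Habp2, a plasma serine protease, read 11.50, 11.54 and 11.56, inside the range of 11.43 to 11.68 of the others. Serpinf2, the antiplasmin gene, read 10.99, 11.87 and 12.06 against 10.34 to 12.10 and followed another split of the samples that is described further on.

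Of the protease inhibitors outside the rule 4 of 11 passed, with a median of 1.26. Mug1, a murinoglobulin that traps proteases in mouse plasma, read 10.28, 8.37 and 8.65 against 4.19 to 4.82, a difference of 4.49 (SE 0.27). Serpina1c, one of the clustered alpha-1-antitrypsin genes, read 11.21, 9.40 and 9.15 against 5.32 to 6.27. Its neighbour Serpina1d read 11.23, 10.85 and 10.90 against 8.91 to 10.96, with a difference of 0.70 (SE 0.45). Near-identical copies in the Serpina1, Mug, Mup, Saa, Ces, Ugt2b and Cyp2c families can share probes, so that which copy gave the signal is uncertain.

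Complement genes passed in 4 of 16 cases and had a smaller median of 0.66. Hc, which encodes complement C5, read 8.73, 6.49 and 5.91 against 3.60 to 4.28, and C9, the pore-forming component, read 8.31, 6.57 and 6.48 against 4.005 to 4.91. C8b, a chain of C8, read 7.24, 6.99 and 6.85 against 4.88 to 5.43, so that wild-type kidney 7 exceeded wild-type kidney 3 by only 0.25. C6, which joins the same membrane attack complex, was lowest of the 3 in wild-type kidney 7, at 5.65, 6.24 and 5.98 against 4.95 to 5.54. Cfb, complement factor B, read 10.25, 10.57 and 10.60 against 9.998 to 10.58, a difference of 0.09 (SE 0.14).

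Among acute-phase and iron genes 4 of 12 passed, with a median of 1.07. Saa4, a constitutive serum amyloid, read 8.88, 7.70 and 7.11 against 3.62 to 5.21. Crp, the mouse C-reactive protein, read 9.28, 6.72 and 6.31 against 3.84 to 4.73. Haptoglobin (Hp), which binds free haemoglobin, read 9.69, 8.70 and 7.94 against 6.82 to 7.85. Knockout kidney 10 stood only 0.09 above the others for Hp, and wild-type kidney 3 stood between it and wild-type kidney 7.

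Of the amino acid genes outside the rule 3 of 24 passed, and their median was 0.09. Besides Cps1 and Mat1a, Tat, the tyrosine aminotransferase that opens tyrosine breakdown, read 10.08, 8.21 and 7.26 against 4.52 to 5.35, and the urea cycle enzyme Otc read 8.31, 5.70 and 5.20 against 3.79 to 4.14. Hgd, a later enzyme of tyrosine breakdown, read 12.39, 12.37 and 12.44 against 12.36 to 12.52. Aass, which starts lysine breakdown, read 11.44, 11.97 and 12.08 against 11.45 to 12.09. For tyrosine breakdown, then, the first enzyme was high in the 3 kidneys and the later one was not.

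Bile acid genes passed in 5 of 16 cases, with a median of 0.31. Cyp7a1, the rate-limiting enzyme of bile acid synthesis, read 8.48, 4.52 and 5.44 against 2.78 to 3.32, and the uptake transporter Slc10a1 read 10.07, 7.62 and 7.77 against 5.45 to 6.76. Slco1b2, another hepatocyte uptake transporter, read 8.34, 5.76 and 6.34 against 3.36 to 4.02. Abcc2, an export pump of liver and proximal tubule, read 10.97, 11.34 and 11.46 against 10.85 to 11.46.

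Genes of drug and steroid metabolism gave the most passing members, 11 of 28, with a median of 1.35. The carboxylesterase Ces3a read 10.59, 8.27 and 9.28 against 4.03 to 5.14, a difference of 4.83 (SE 0.35). Its relative Ces1c read 11.61, 7.95 and 8.15 against 4.20 to 5.16, and the glucuronosyltransferase Ugt2b1 read 9.16, 8.20 and 8.44 against 3.96 to 4.76. Ces3a and Ugt2b1 were higher in knockout kidney 10 than in wild-type kidney 3. Cyp2e1, a P450 of liver and proximal tubule, read 12.56, 13.13 and 13.32 against 11.66 to 13.27.

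Lipid and glucose genes passed in 1 of 16 cases, with a median of 0.05. That gene was Fabp1, the fatty acid binding protein of liver, which read 9.73, 6.93 and 7.17 against 3.60 to 5.94, a difference of 3.31 (SE 0.62). G6pc, the last enzyme of gluconeogenesis, read 13.16, 12.69 and 13.03 against 12.81 to 13.16, and wild-type kidney 3 lay below all 12. Of 13 liver transcription factors 0 passed in limma, with 3 at an unadjusted p under 0.05, and the median was 0.12. Nr1i3, the nuclear receptor CAR, read 6.69 in wild-type kidney 7 but 4.78 and 5.06 in the other two, inside the range of 4.50 to 5.37. Hnf4a read 12.11, 12.19 and 12.11 against 11.96 to 12.25.

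Genes that liver and kidney share were nearly level in the median between the 3 kidneys and the rest. Of 35 such genes measured, 1 passed, 2 had all 3 kidneys above the others and the median difference was 0.02. By kidney, 9, 3 and 6 of the 35 exceeded the highest of the 12, where 7.12%, 6.86% and 5.66% of all genes did. Wild-type kidney 3 lay below all 12 in 6 of the 35, as in 2316 of all 22180 genes. The 4 with the smallest difference were the gluconeogenic enzyme Fbp1 (-0.00), Hnf4a (0.01), Gatm (-0.01), which makes the creatine precursor, and Haao (-0.02), an enzyme of tryptophan breakdown. Fbp1 read 13.41, 13.34 and 13.37 against 13.33 to 13.46, and Gatm read 12.76, 12.50 and 12.54 against 12.51 to 12.76. Cat, which encodes catalase, read 13.25, 13.16 and 13.11, where the highest of the others was 13.18. Exceptions in all 3 kidneys were Fabp1 and Rbp4. Fabp1, although on this list, was dim in the other 12 kidneys, with a mean of 4.62 and 23.48% of genes below it. Rbp4, the plasma carrier of retinol, read 10.55, 8.66 and 8.38 against 7.12 to 8.06 and had a difference of 1.54 (SE 0.33).

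Hepatocyte genes stood out further the dimmer their probe sets were in the other 12 kidneys. For this description each of the 3 was set against the others that had Y-linked transcripts, or lacked them, as it did. In 84 of the 179 genes the mean of the others was under 6, and the median difference there was 3.49 in wild-type kidney 7, 1.19 in wild-type kidney 3 and 0.95 in knockout kidney 10. More than 1 unit of difference was reached by 73, 44 and 41 of these 84 genes, against 0.978%, 0.496% and 0.311% of all genes. In 57 genes between 6 and 9 the medians were 0.81, 0.14 and 0.17, with 26, 11 and 7 genes over 1 unit. In 38 genes over 9 they were 0.05, -0.05 and 0.07, with 4, 1 and 1 genes over 1 unit. Besides Alb, those of wild-type kidney 7 were Serpina1d (2.09), Azgp1 (1.93) and Fmo5 (1.20). Of the dim genes 44 passed, of the middle ones 7 and of the bright ones 1, Alb. Probe sets differ in how strongly they bind their transcript, so the level of a gene on this scale is a rough guide to its abundance in kidney.

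**Figure D2:**
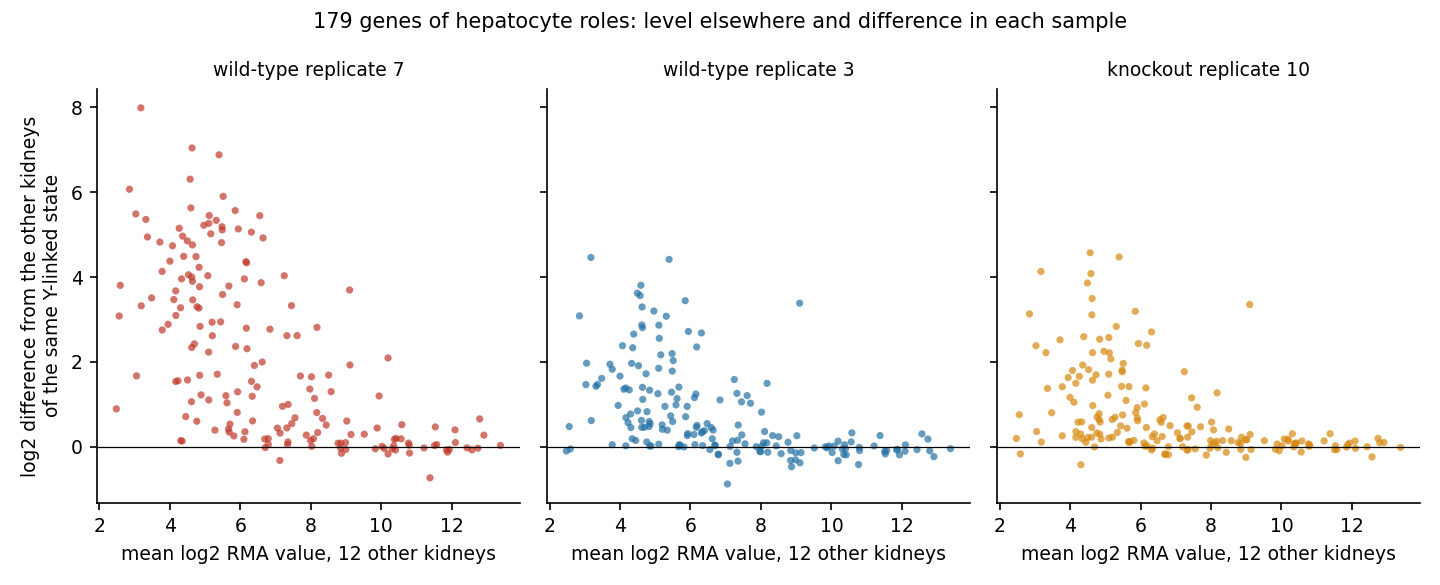
Difference of each of 179 hepatocyte genes in 1 kidney from the mean of the other kidneys of the same Y-linked state (vertical axis, log2) against the mean log2 RMA value of the gene in the 12 other kidneys (horizontal axis), with 1 panel for each of the 3 kidneys. Differences of several units occur at low levels, while above 9 the medians are near 0 and 4 genes in wild-type kidney 7 and Alb alone in the others exceed 1.

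Taken one at a time, the 3 kidneys differed in how many genes stood out and in which. Wild-type kidney 7 exceeded the highest of the 12 by more than 1 unit in 171 of 22180 genes (0.771%), wild-type kidney 3 in 49 (0.221%) and knockout kidney 10 in 44 (0.198%). Of these, 91, 41 and 40 belonged to hepatocyte roles and 63, 5 and 1 to no list. In 38 genes all 3 exceeded the others by more than 1 unit, and 35 of them had hepatocyte roles. The other three were the major urinary protein genes Mup3 and Mup20 and AI182371, which read 8.24, 5.84 and 5.85 against 3.85 to 4.25.

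The step from wild-type kidney 3 to wild-type kidney 7 was of similar size over many hepatocyte genes. In 61 genes under 6 in the others and over 2 units higher in wild-type kidney 7, a choice that favours that kidney, it exceeded wild-type kidney 3 by a median of 2.50 (quartiles 2.09 and 2.83). The step ranged from 0.25 for C8b to 4.39 for Hamp. Ahsg lay at the median with 2.50, and Alb, which the choice leaves out for its brightness, had a step of 1.15. Knockout kidney 10 and wild-type kidney 3 were close to each other over the same genes, with a median difference of -0.06 (quartiles -0.31 and 0.15), and 49 of the 61 lay within 0.5. The extremes were the P450 genes Cyp3a11, which was 1.38 lower in knockout kidney 10 (4.93 against 6.31), and Cyp1a2, which was 1.20 higher there (7.43 against 6.23). Rule genes other than Alb were among the 61. How many of all genes lay within 0.5 was not counted, so the 49 cannot be read as particular to liver genes. With 1 array per kidney these steps have no replicate check.

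Zonal genes of the liver lobule divide into those high near the portal vein and those high near the central vein. Of 7 periportal genes outside the rule 0 passed in limma, with 3 at an unadjusted p under 0.05, and their median difference was 0.04. Hal, the histidase gene, read 8.99, 5.45 and 5.50 against 4.57 to 5.10. Of 12 pericentral genes 4 passed, and their median was 0.16. They were Cyp1a2, Cyp2c29, Gulo, the enzyme that completes vitamin C synthesis in mice, and Rgn, a calcium-binding protein. Cyp2c29 read 8.57, 4.79 and 5.59 against 2.85 to 3.91, and Gulo read 8.76, 6.46 and 6.96 against 5.20 to 6.04. All 4 of these pericentral genes, shown because they passed, were higher in knockout kidney 10 than in wild-type kidney 3. Over the whole lists the median of this step was 0.19 for 12 pericentral and 0.04 for 9 periportal genes. Periportal genes went either way: the rule genes Cps1 and Alb were lower in knockout kidney 10 by 0.24 and 0.03, and Hal was higher by 0.05. Glul, the classical gene of the cells at the central vein, is bright in kidney and read 12.14, 11.95 and 11.83 against 11.84 to 12.25.

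Wild-type kidney 7 lacked Y-linked transcripts and wild-type kidney 3 and knockout kidney 10 had them. The mean of 3 Y-linked genes was 4.01, 8.39 and 8.68, and among the other 12 kidneys 8 had these transcripts and 4 did not. Sex was not given in the labels. Kidney genes known to differ between the sexes followed this split: Cyp7b1, a hydroxylase of sterols, read 6.87 in wild-type kidney 7, between 6.62 and 6.97 in the 4 others without Y-linked transcripts, and 11.46 and 11.62 in the other two. The same split moves Serpinf2, Azgp1 and other genes of liver and kidney, so that their differences in the fit have wide errors, such as 0.49 (SE 0.74) for the plasma glycoprotein gene Azgp1.

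Sex-biased liver genes that kidney barely expresses also differed between the 3 kidneys. Cyp2b9, a P450 of female mouse liver, read 11.14 in wild-type kidney 7 but 3.96 and 4.77 in the other two, against 4.45 to 5.11 in the 12. Cyp2c69, Cyp2b13 and A1bg, all female-biased, read 8.06, 8.24 and 8.44 in wild-type kidney 7, where no other kidney exceeded 4.58. Of 14 female-biased genes, 8 were over 2 units higher in wild-type kidney 7 than the mean of the 12, as were 0.627% of all genes, and in 7 of the 8 neither of the other two kidneys exceeded the 12. At the same threshold, of 80 genes of hepatocyte roles both other kidneys exceeded the 12 in 66 and neither did in 6. Female-biased genes that kidney itself expresses, Fmo2 (11.70, 11.65 and 11.72 against 11.50 to 11.89) and Cyp2a4 (10.48, 11.28 and 11.48 against 10.26 to 11.58), did not stand out. Cux2, on the same list, read 6.46 in wild-type kidney 7, inside the range of 6.31 to 6.61 of the 12. Hao2 and Prom1 followed the Y-linked split among the 12. They averaged 11.75 and 10.20 in the others without Y-linked transcripts and 10.50 and 9.02 in those with them.

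In all 11 male-biased genes wild-type kidney 7 was the lowest of the 3 kidneys. It was the highest of the 3 in 0 of these genes and in 8024 of all 22180 genes. Mup20, a major urinary protein that acts as a male pheromone, read 6.14 in wild-type kidney 7, 10.69 in wild-type kidney 3 and 7.47 in knockout kidney 10, against 2.98 to 4.09. Mup3 read 9.24, 10.50 and 9.90 against 3.80 to 5.28, a difference of 5.52 (SE 0.27). Hsd3b5, a steroid dehydrogenase of male liver, read 2.72, inside the range of 2.33 to 3.22 of the 12, in wild-type kidney 7, and 4.77 and 4.996 in the other two. These 3 genes were the male-biased ones that were higher in wild-type kidney 3 and knockout kidney 10 than in all 12 others. Wild-type kidney 3 exceeded knockout kidney 10 by 3.22 for Mup20, against 0.59 for Mup3. Others of this list, such as Elovl3 (6.40, 8.10 and 7.60 against 5.76 to 8.52) and Cyp2d9 (7.67, 9.88 and 10.28 against 7.34 to 10.37), lay within the range of the 12. Some genes of the list also followed the Y-linked split among the 12, where wild-type kidney 7 would be low without any liver RNA. Cyp2d9 averaged 10.12 in the 8 others with Y-linked transcripts and 7.665 in the 4 without. With 1 kidney without Y-linked transcripts among the 3, sex and the amount of liver RNA cannot be told apart.

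**Figure D3:**
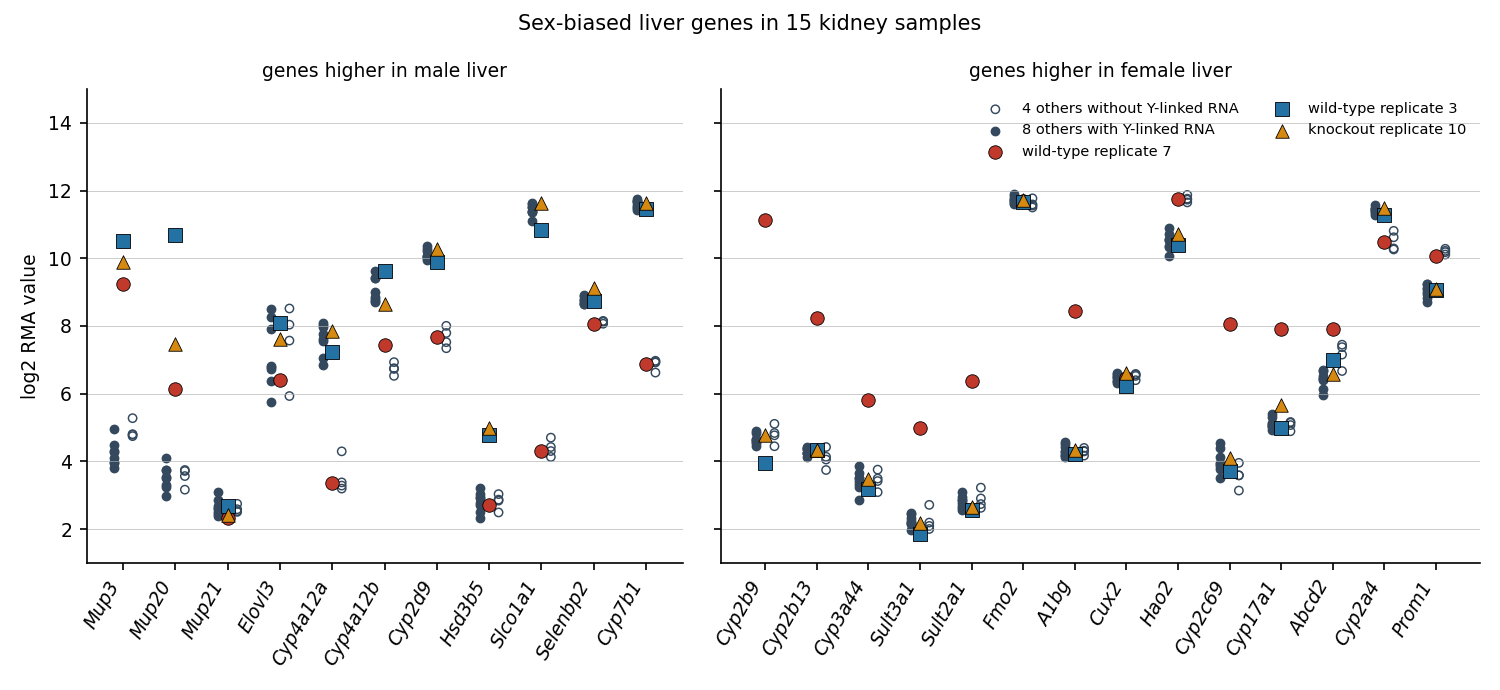
Log2 RMA values (vertical axis) of 11 genes higher in male liver (left) and 14 higher in female liver (right) in each of 15 kidneys. Filled and open points are the 8 other kidneys with and the 4 without Y-linked transcripts, and the red circle, blue square and orange triangle are wild-type kidney 7, wild-type kidney 3 and knockout kidney 10; Cyp2b9 is high in wild-type kidney 7 alone, and Mup20 is highest in wild-type kidney 3.

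Some hepatocyte genes without a place in these sex-biased lists exceeded all 12 others in wild-type kidney 7 but in neither of the other two. Of 91 hepatocyte genes over 1 unit above the highest of the 12 in that kidney, 9 exceeded the 12 in neither of the other two. They were Serpina6, Cyp2c37, Hamp2, Cyp2c50, Cfi, Serpina3n, Nr1i3, C4b and Masp1. Serpina6, which encodes the corticosteroid carrier of plasma, stood 4.71 above the mean of the 12 in wild-type kidney 7 and 0.94 and 0.95 in the other two. Against the others of the same Y-linked state its differences were 3.79, 1.41 and 1.42, so it was not high in wild-type kidney 7 alone. Hamp2, a close copy of the hepcidin gene, read 6.28, 2.60 and 2.48 against 2.28 to 3.07, unlike Hamp, which was high in all 3. Outside every list, the genes with the widest gap between wild-type kidney 7 and the other 14 kidneys were the sulfotransferase Sult2a2 (8.56 against at most 4.04), the steroid dehydrogenase Hsd17b6 (8.76 against at most 4.77), the pseudogene Mug-ps1 (7.50 against at most 3.97) and the P450 genes Cyp3a16 (6.69 against at most 3.18), Cyp2c40 (6.17 against at most 2.67) and Cyp2c38 (7.82 against at most 4.38). Of these, Hsd17b6 also lay above all 12 in the other two kidneys. In wild-type kidney 3 the widest gap was 1.17, for the pseudogene Serpina4-ps1, and in knockout kidney 10 it was 0.57, for Cyp2c39.

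Genes outside the fixed lists in which all 3 kidneys lay above all 12 included several known from liver. Uox, the urate oxidase of rodent liver, read 7.67, 4.86 and 5.19 against 3.38 to 4.20, a difference of 2.15 (SE 0.37). Lect2, a secreted hepatocyte factor, read 8.25, 5.41 and 6.04 against 4.08 to 5.30, and Fgl1, a fibrinogen-like hepatokine, read 7.84, 5.24 and 4.62 against 3.88 to 4.23. Sult2a8 read 6.46, 4.68 and 4.50 against 2.91 to 3.54, and Apon read 7.99, 4.80 and 5.03 against 3.84 to 4.28. The rest of the 12 with the largest difference were AI182371, Gm10319, Hsd17b6, Ces2a, 1300017J02Rik, Nrn1 and Mtarc1, with differences from 1.36 to 2.48. Genes in which all 3 lay below all 12 differed much less: the largest difference was -0.49 (SE 0.19), for the vomeronasal receptor gene Vmn2r15, whose values of 2.04, 1.88 and 1.94 lay at the dim end of the array. Gjb2, a gap junction gene, read 10.20, 9.85 and 10.23 against 10.23 to 10.62, and Fam122a read 7.39, 7.13 and 7.22 against 7.42 to 7.72.

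Some markers of the other cells of the liver were higher in wild-type kidney 7, and fewer in the other two. Vsig4, a receptor of Kupffer cells, the resident macrophages of liver, read 6.30 in wild-type kidney 7 and 4.13 and 3.82 in the other two, against 3.41 to 3.82. Cd5l, another product of these macrophages, read 5.58 in wild-type kidney 7 and 3.57 in both others, against 3.09 to 3.85. The other Kupffer cell genes did not stand out as far in wild-type kidney 7: Clec4f read 5.83 against 5.15 to 5.66, Timd4 read 4.91 against 4.18 to 5.42 and Marco read 5.47 against 5.21 to 5.71. Clec4g, a lectin of the sinusoidal endothelium, read 6.78, 4.75 and 5.29 against 4.30 to 4.80. Wild-type kidney 7 exceeded the 12 in 5 of the 6 endothelial genes, in 2 of them by more than 1 unit. Wild-type kidney 3 did so in 0 and knockout kidney 10 in 1. Of all genes 7.12%, 6.86% and 5.66% did, in the usual order. The stellate cell gene Colec10 read 5.30, 4.41 and 4.27 against 3.85 to 4.70. Wild-type kidney 7 exceeded the 12 in 3 of the 6 stellate genes, in 0 of them by more than 1 unit. It lay within their range for Lrat, Colec11 (5.95 against 5.18 to 6.11) and Ecm1 (10.64 against 10.12 to 10.81). For the bile duct list the median difference was -0.03, and Krt19, a keratin of bile duct cells that the collecting duct also makes, read 5.94, 6.03 and 5.99 against 5.78 to 6.54. Of the 5 Kupffer, 6 endothelial, 6 stellate and 6 bile duct genes 0 passed in limma, with 5 at an unadjusted p under 0.05, and in 1 of these 23 genes, Vsig4, the 3 kidneys lay above the 12.

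Transcripts of other tissues were not shared by all 3 kidneys. The mean of 8 adrenal cortex genes was 4.81 in wild-type kidney 7 but 8.01 in wild-type kidney 3 and 7.88 in knockout kidney 10, and 4 of the other 12 kidneys were high as well, with a range of 4.56 to 9.29. Cyp11b1, which makes corticosterone, read 4.35, 9.78 and 9.70 against 3.88 to 11.55. The adrenal medulla gene Chga read 6.04, 9.998 and 8.80 against 5.85 to 9.95. With the adrenal cortex mean as a covariate 64 probe sets passed instead of 66. Of 8 exocrine pancreas genes the mean was 4.73, 4.82 and 4.82 against 4.67 to 4.85. For 7 intestine genes it was 4.51, 4.49 and 4.45 against 4.33 to 4.57, and within that list Fabp2 read 5.22 in wild-type kidney 7 against 3.41 to 3.83. For 5 skeletal muscle genes it was 4.94, 5.13 and 5.05 against 5.04 to 5.38. The B cell gene Ighm read 10.62, 12.93 and 10.17 against 9.57 to 13.13, and the heat shock gene Hspa1a read 10.78 in wild-type kidney 3, where no other kidney exceeded 9.79. The part of the B cell and heat shock transcripts in the result was not tested.

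Genotype was not used to choose the 3 kidneys, and the liver transcripts are set against it here. Liver transcripts were high in 2 of 7 wild-type and 1 of 8 knockout kidneys (Fisher's exact p = 0.569, two-sided), and with 3 such kidneys the smallest p this test allows is 0.0769. The mean of the 9 genes was 6.98 ± 2.04 (SD, n = 7) in wild-type and 6.11 ± 0.91 (SD, n = 8) in knockout kidneys, a difference of -0.88 with an exact permutation p of 0.204 (two-sided, 6435 splits). Without wild-type kidney 7 the difference was -0.20. Without knockout kidney 10 it was -1.20, with an exact permutation p of 0.0157 that cannot be read as a test, since this leaves out the 1 knockout kidney chosen for a high value. Among the other 12 kidneys the means were 5.87 ± 0.07 (SD, n = 5) and 5.79 ± 0.07 (SD, n = 7), a difference of -0.08 with an exact permutation p of 0.0669 (two-sided, 792 splits). This p cannot be read as a test either, since the 12 are the kidneys left after high values of the same mean were set apart.

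Among the other 12 kidneys the mean of the rule genes, by which they were set apart, spans a narrow range, which limits any relation with it. That mean and the mean of the other 170 hepatocyte genes had Pearson's r = 0.12 (permutation p = 0.700) and Spearman's rho = 0.25 (permutation p = 0.431) over 12 kidneys, a single relation for which no adjustment was needed. The 12 are the kidneys left after high values of the rule mean were set apart. The permutation p given here therefore cannot decide whether a relation exists, and r and rho describe these 12 kidneys only. Without the 2 kidneys farthest from the median r was 0.16 (permutation p = 0.660). With the median of the 170 genes in place of their mean r was 0.51 (permutation p = 0.096). Within the 8 kidneys with Y-linked transcripts r was 0.54 (permutation p = 0.172), and within the 7 knockout kidneys it was 0.14 (permutation p = 0.751). Both means come from the same arrays and share their normalization, and no r over all 15 is given because the kidneys fall into separate clusters.

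The difference between genotypes in the liver genes changed with the 3 kidneys. Over all 15 kidneys the 179 hepatocyte genes had a median knockout minus wild-type difference of -0.30, and 148 were lower in knockout kidneys, where 45.3% of all genes were lower. Over the other 12 kidneys the median was -0.02 with 98 lower, where 47.0% of all genes were lower. Leaving out the 3 kidneys also changed the balance of Y-linked state between the genotypes. Of the 12, wild-type replicate 6 and knockout replicates 13, 14 and 15 lacked Y-linked transcripts. The part of this imbalance in the genotype differences was not tested. With the mean of the 9 genes as a covariate the median was -0.00 with 90 lower, and 47.7% of all genes were. Without the 9 rule genes, which make up the covariate, the 3 medians over 170 genes were -0.27, -0.02 and -0.01. Of these genes 139, 93 and 86 were lower. Ahsg, a rule gene like Cps1 and Alb, had a difference of -1.14 (SE 1.05) over 15 and -0.10 (SE 0.09) over 12 kidneys. Cps1 went from -1.02 (SE 0.75) to -0.24 (SE 0.09), while Alb went from -0.54 (SE 0.72) to 0.16 (SE 0.25) and Hamp from -0.98 (SE 1.21) to 0.46 (SE 0.31). None of the 179 hepatocyte genes passed in limma in any of these 3 fits, where the smallest adjusted p was 0.688, 0.856 and 0.775 and 5, 14 and 7 genes had an unadjusted p under 0.05.

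The number of hepatocyte genes beyond 0.5 in either direction was 59 of 179 over 15 kidneys, 7 over 12 and 4 with the covariate, against 143, 126 and 86 of all 22180 genes (0.645%, 0.568% and 0.388%). Without the rule genes, which chose the kidneys and make up the covariate, it was 50, 7 and 4 of 170. The 7 over 12 kidneys were Apoh, Hrg, Pon1, Azgp1, Cyp7b1, Fmo5 and Inmt. All 7 were lower on average in the others without Y-linked transcripts: Hrg, a histidine-rich plasma glycoprotein, averaged 7.59 in the 8 others with Y-linked transcripts and 4.47 in the 4 without.

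**Figure D4:**
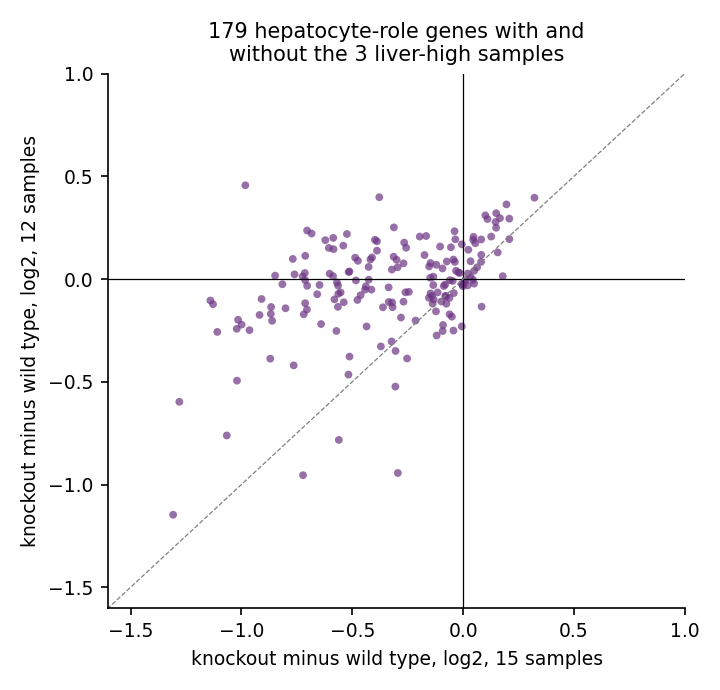
Knockout minus wild-type difference (log2) of each of 179 hepatocyte genes over the 12 other kidneys (vertical axis) against the same over all 15 kidneys (horizontal axis), with the line of equal values dashed. Most points lie left of 0 and near the horizontal line, where the median is -0.30 over 15 and -0.02 over 12 kidneys.

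Over the whole array the genotypes differed in few probe sets, with or without the 3 kidneys. In limma 3 of 23521 probe sets (0.0128%) passed over 15 kidneys and 2 (0.0085%) over 12, and 2 (0.0085%) passed with the mean of the 9 genes as a covariate. Greb1, an oestrogen-responsive gene, was 1.62 (SE 0.14) higher in knockout kidneys over 15 and 1.72 (SE 0.15) over 12, with limma adjusted p of 5.3e-05 and 0.000926. Rec8, a meiotic cohesin subunit, was lower by -1.05 in both (SE 0.08 and 0.10), with limma adjusted p of 2.23e-05 and 0.00117. Cys1, which encodes the cilium protein cystin, had limma adjusted p of 0.0330 over 15, 0.250 over 12 and 0.118 with the covariate, at differences of -0.60, -0.61 and -0.59. Greb1 read 5.02 and 5.70 in wild-type kidneys 7 and 3 and 6.65 in knockout kidney 10, and Rec8 read 6.10, 6.14 and 5.16, so that each of the 3 fell on its genotype's side for both genes. Grhl1 itself read 5.05, 5.04 and 4.77 in the 3 kidneys. Its difference was -0.38 (SE 0.07, limma adjusted p = 0.113) over 15 and -0.41 (SE 0.09, limma adjusted p = 0.419) over 12 kidneys.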

How the data were processed

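Kidney RNA of 7 wild-type and 8 knockout mice was measured on 1-colour arrays from 500 ng of total RNA, per the labels' protocols. The authors deposited log2 values that RMA had summarised for each probe set, per the submitters' processing notes. RMA gives all arrays the same distribution and compresses dim probe sets. The RMA version, the array's genome build, sex, litter and batch are not named in the labels. Array medians lay between 5.51 and 5.59 in all 15, whose number sets the precision of each value.

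Of 41345 probe sets, 23521 with 1 symbol in the platform annotation were tested. They cover 22180 genes, while 1814 probe sets had several symbols and 16010 were unnamed here. Symbols of 23328 were updated through RefSeq (GRCm38.p6). A gene was represented by its probe set with the highest mean over all arrays. Differences, SE and Benjamini-Hochberg adjusted p come from limma 3.58.1 in R 4.3.3 (lmFit and eBayes without trend, all genes fitted together), with a threshold of 0.05. The 3 kidneys were compared with the other 12 with genotype as covariate, and genotypes without covariate. The fit was tested on simulated data. Permutation tests were exact or used 100000 resamples (scipy 1.17.1). Groups and numbers came from the sample titles.

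The kidneys, the 35 gene lists and the tests were chosen with earlier results of these data known. Named genes were the rule genes, Hamp, Grhl1, in each list up to 4 members with the largest difference and up to 2 brightest in the other kidneys, the 4 shared genes with the smallest difference, the 12 genes outside the lists with the largest difference each way, and those passing between genotypes. Genes outside this rule, among them Serpina6, Hamp2, Hrg, Hspa1a, Cyp3a11 and those that stood out in 1 kidney, were named after their values were seen. Alternatives covered covariates, the variance prior, a filter on dim probe sets, centring, the threshold of the rule and leaving out each of the 3 kidneys.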

Additional observations from a re-analysis of the deposited data

Results flagged for a closer look

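In 14 cases among the 26 combinations of a measure and a genotype examined, 1 kidney stood apart from its genotype group, its gap to the nearest kidney being a larger share of the group's range than Dixon's 95% critical value (0.568 for 7 kidneys and 0.526 for 8). The rate of about 1 in 20 that chance gives for a single measure does not apply to these 26. These kidneys were chosen for the same transcripts, and the measures rise together, so the list describes them and adds no support. For the knockout group the kidney was replicate 10 in all 11 cases. Its mean of the 9 rule genes was 8.36 and its mean of the other hepatocyte genes was 7.60. Its single genes were Alb at 12.17, Ahsg at 9.85, Serpinc1 at 7.11, Cps1 at 8.20, Itih4 at 7.30, Mat1a at 7.35, Plg at 7.36, Vtn at 8.31 and Ambp at 7.61. For the wild-type group it was replicate 7 in all 3 cases, with a mean of the other hepatocyte genes of 8.78, Serpinc1 at 9.83 and Plg at 10.37. With 2 high kidneys in the wild-type group, replicate 3 lies between replicate 7 and the rest and narrows the gap there.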

How the results depend on the processing

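Of 37 alternative settings, 32 kept the direction and the side of the threshold or stayed within 1.5 times of a count, and 0 reversed. With the probe sets above the median of all alone, 8 of 11760 passed between the 3 kidneys and the rest, the median hepatocyte difference was 0.114 over 94 genes, and 0 probe sets passed between genotypes in limma (771 at an unadjusted p under 0.05, smallest adjusted p 0.0514). That filter removes the dim probe sets by construction. Leaving out each of the 3 kidneys in turn gave 80 to 101 passing probe sets, median hepatocyte differences of 0.344 to 0.777, genotype differences of the liver mean of -1.20 to -0.202 and 2 passing probe sets between genotypes each time. Without knockout replicate 10 the genotype difference of -1.20 had an exact permutation p of 0.0157, which by construction leaves out the 1 knockout kidney chosen for a high value. With the median of the other hepatocyte genes in place of their mean, the correlation in the 12 kidneys was 0.505 instead of 0.122. Its permutation p of 0.096 cannot decide whether a relation exists, since high values of the rule mean had been set apart. Adding the Y-linked mean to the fit, 90 probe sets passed, 87 higher and 3 lower. The comparison of each kidney with others of the same Y-linked state (median 0.652), the genotype difference without the 3 kidneys and the relation within the 8 kidneys with Y-linked transcripts were added after seeing the data. No paired analysis was possible because the genotypes share no replicate number. Limits are 1 array per kidney, dim probe sets without a known detection limit, and a choice of kidneys by the transcripts described.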
